A study of Saccharomyces cerevisiae EC1118 with 12 samples.

Results

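The DAN and TIR genes encode mannoproteins of the yeast cell wall that are known from anaerobic growth. The 6 genes described here, DAN1 (YJR150C), DAN4 (YJR151C), TIR1 (YER011W), TIR2 (YOR010C), TIR3 (YIL011W) and TIR4 (YOR009W), were taken by the gene symbol of the platform annotation. Each had 1 probe set, and they are 6 of the 5449 genes measured. The cultures were of EC1118, a commercial wine strain of Saccharomyces cerevisiae, kept at steady state under nitrogen limitation in chemostats fed synthetic grape must (pH 3.5, dilution rate 0.1 per hour). The 12 Affymetrix arrays fall into 4 groups of 3. These are fully anaerobic cultures and cultures sparged with 1%, 5% or 20% oxygen, with every other stated condition shared. The sources give the dissolved oxygen of the oxygenated groups as 1.2, 2.7 and 5 micromolar in the sample titles and as 0.8, 4 and 11 micromolar in the condition labels, so the groups are named here by the sparging gas. Whether the arrays within a group stand for separate chemostats is not given in the labels, and the p-values therefore rest on a spread that may be technical. RNA was measured on whole cultures, so fewer cells expressing a gene and less RNA per cell cannot be told apart.

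DAN and TIR proteins are rich in serine and alanine, carry O-linked mannose and are attached to the wall through a GPI anchor. In laboratory strains they take the place of the aerobic wall mannoproteins Cwp1 and Cwp2 when oxygen is absent, and deletion of TIR1, TIR3 or TIR4 prevents anaerobic growth. Their transcription is known to need the sterol-responsive activator Upc2, and heme, whose synthesis needs oxygen, leads to their repression through Rox1, Mot3 and the Tup1-Cyc8 corepressor. TIR1 and TIR2 are also known as cold shock genes. The questions here are how the 6 transcripts differ between the oxygen groups, at which oxygen level they fall, and how far the 6 differ among themselves.

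Values are RMA log2 levels, on which a difference of 1 is a 2-fold change. A gene was called when the adjusted p of limma's moderated test over all 5449 genes was under 0.05, and each difference is followed by its standard error. The highest value of any gene on an array was 13.41 to 13.68. Anaerobic levels of all members but DAN4 lay between 12.1 and 12.9, close to that top, and compression of these high values was not tested. Over all genes, 1% oxygen array 3 stood furthest from its group, with deviations of SD 0.548 and a correlation of 0.94 with the other 1% arrays. On the remaining arrays that SD was 0.189 to 0.399 and that correlation 0.97 to 0.992. All 6 members were lowest on that array among the 1% arrays, so results at 1% oxygen are also given without it. On that setting the differences at 1% oxygen were -0.20 (DAN1), -1.73 (DAN4), -0.73 (TIR1), -0.73 (TIR2), -0.74 (TIR3) and -1.10 (TIR4), none of them called (adjusted p of 0.127 to 0.931).

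All 6 transcripts fell at 20% oxygen, by 3.26 to 5.73 on the log2 scale, and at 5% oxygen 5 of them fell. At 1% oxygen DAN4 alone passed the test, although the mean of each of the 6 was below its anaerobic mean.

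TIR1, a serine- and alanine-rich wall protein gene, had levels of 12.77, 12.9 and 12.78 on the anaerobic arrays, 11.95, 12.23 and 10.67 at 1% oxygen, 10.46, 10.9 and 9.48 at 5% and 9.35, 7.02 and 9.64 at 20%. The anaerobic arrays lay above every oxygenated array, and each oxygen level overlapped the next. TIR1 averaged 8.67 ± 1.43 at 20% oxygen and 12.81 ± 0.07 in anaerobic cultures (SD, n = 3 each), a difference of -4.14 ± 0.62 (adjusted p = 0.00277), or 17.7-fold lower. At 5% oxygen the difference was -2.53 ± 0.62 (adjusted p = 0.0172). With anaerobic array 2 left out the adjusted p at 5% oxygen was 0.0593, and with 5% oxygen array 3 left out it was 0.0585. With 20% oxygen array 2 left out the 20% difference was -3.32 and still called. At 1% oxygen the difference was -1.20 ± 0.62 (adjusted p = 0.185).

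TIR3 had anaerobic levels of 12.1, 12.36 and 12.31, followed by 11.34, 11.7 and 9.25 at 1% oxygen, 10.43, 10.78 and 8.42 at 5% and 9.83, 7.75 and 9.39 at 20%. Every oxygenated array was below the anaerobic ones, and the 3 oxygenated groups overlapped each other. TIR3 averaged 8.99 ± 1.10 at 20% oxygen and 12.26 ± 0.14 in anaerobic cultures (SD, n = 3 each), a difference of -3.26 ± 0.73 (adjusted p = 0.0189), or 9.61-fold lower. Leaving out anaerobic array 2 or anaerobic array 3 ended the call (adjusted p = 0.0654 and 0.0659), and so did leaving out 20% oxygen array 2 (-2.65, adjusted p = 0.0802). At 5% oxygen the difference of -2.38 ± 0.73 (adjusted p = 0.0427) lost its call on leaving out any of 8 single arrays, with adjusted p up to 0.134 and differences of -2.83 to -1.65, the smaller of these being without 5% oxygen array 3. The 8 arrays were anaerobic arrays 1, 2 and 3, 1% oxygen array 1, 5% oxygen arrays 1, 2 and 3 and 20% oxygen array 3. At 1% oxygen TIR3 differed by -1.49 ± 0.73 (adjusted p = 0.161). TIR3 thus had the smallest 20% difference of the 6, and among the calls against anaerobic its 5% call ended with the most single arrays.

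TIR4 had anaerobic levels of 12.23, 12.69 and 12.37, with 11.4, 11.25 and 8.76 at 1% oxygen, 6.86, 9.02 and 6.29 at 5% and 7.63, 4.7 and 7.76 at 20%. The 5% and 20% arrays overlapped, and the lowest 1% array lay below the highest 5% array. TIR4 averaged 6.70 ± 1.73 at 20% oxygen and 12.43 ± 0.24 in anaerobic cultures (SD, n = 3 each), which was -5.73 ± 0.91 (adjusted p = 0.0037), or 53.2-fold lower. Its fall at 5% oxygen was nearly as large, at -5.04 ± 0.91 (adjusted p = 0.00458). In both comparisons it ranked 2 of 5449 genes from the most negative difference, and both calls held with each array left out in turn. The 20% difference was -4.74 without 20% oxygen array 2, and the 5% difference was -5.86 without 5% oxygen array 2. At 1% oxygen TIR4 differed by -1.96 ± 0.91 (adjusted p = 0.144).

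TIR2, a relative of TIR1 and the neighbour of TIR4 on its chromosome, had anaerobic levels of 12.2, 12.73 and 12.48, then 11.65, 11.83 and 10.84 at 1% oxygen, 9.19, 9.57 and 7.63 at 5% and 7.33, 7.49 and 8.07 at 20%. Anaerobic, 1% and 5% arrays formed 3 separate ranges, and the 20% arrays overlapped the lowest 5% array. TIR2 averaged 7.63 ± 0.39 at 20% oxygen and 12.47 ± 0.27 in anaerobic cultures (SD, n = 3 each), a difference of -4.84 ± 0.44 (adjusted p = 9.92e-05), or 28.7-fold lower. At 5% oxygen it fell by 3.67 ± 0.44 (adjusted p = 0.0011). TIR2 had the smallest spread within groups of the 6, with a residual SD of 0.624 against 0.905 to 1.35 for the others, and both calls held with each array left out. At 1% oxygen the difference of -1.03 ± 0.44 did not pass (adjusted p = 0.116), except with 5% oxygen array 3 left out (adjusted p = 0.039) or with array weights (-0.86, adjusted p = 0.0385). The estimation of array weights did not converge, so calls made with them, here and below, are given only as a record.

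DAN1, whose name stands for delayed anaerobic, had anaerobic levels of 12.57, 12.71 and 12.67, with 12.31, 12.59 and 11.67 at 1% oxygen, 9.46, 11.68 and 8.94 at 5% and 7.58, 4.93 and 9.27 at 20%. It was the one member whose 1% arrays overlapped the anaerobic arrays, and its SD was 0.07 over the anaerobic arrays, 0.47 at 1% oxygen, 1.45 at 5% and 2.19 at 20%. DAN1 averaged 7.26 ± 2.19 at 20% oxygen and 12.65 ± 0.07 in anaerobic cultures (SD, n = 3 each), a difference of -5.39 ± 0.90 (adjusted p = 0.00513), or 42-fold lower. The call held with each array left out, at -4.23 without 20% oxygen array 2 and -6.40 without 20% oxygen array 3. At 1% oxygen the difference was -0.46 ± 0.90 (adjusted p = 0.745), with a 95% interval of -2.41 to 1.5, so a fall of the size seen in the other members was not excluded. At 5% oxygen DAN1 differed by -2.62 ± 0.90 and was not called (adjusted p = 0.0662). It was called there without 5% oxygen array 2 (-3.45, adjusted p = 0.0423), without 20% oxygen array 2 (adjusted p = 0.0184) and without 20% oxygen array 3 (adjusted p = 0.0344), the last 2 of which enter only through the shared spread. A fit of only the 2 groups (adjusted p = 0.022) also called it, as did the array weights that did not converge (-2.21, adjusted p = 0.0115).

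DAN4, the neighbour of DAN1, had anaerobic levels of 7.36, 10.48 and 8.88, with 7.32, 7.04 and 5.62 at 1% oxygen, 5.29, 6.05 and 5.26 at 5% and 4.89, 5.21 and 5.92 at 20%. The spread lay among the anaerobic arrays, the lowest of which was only just above the highest 1% array, and the 5% and 20% arrays covered nearly the same range. DAN4 averaged 5.34 ± 0.53 at 20% oxygen and 8.91 ± 1.56 in anaerobic cultures (SD, n = 3 each), a difference of -3.56 ± 0.66 (adjusted p = 0.00801), or 11.8-fold lower. It fell by 3.37 ± 0.66 at 5% oxygen (adjusted p = 0.00648), and both calls held with each array left out. The 20% difference was -4.34 without anaerobic array 1 and -2.78 without anaerobic array 2, and the 5% difference was -4.15 and -2.59. At 1% oxygen it fell by 2.25 ± 0.66 (adjusted p = 0.0386, with a difference of -3.02 without anaerobic array 1). The 1% call ended on leaving out anaerobic array 2 (-1.46, adjusted p = 0.146) or anaerobic array 3 (adjusted p = 0.0915). Without 1% oxygen array 3 it stood at -1.73 (adjusted p = 0.127), and without 5% oxygen array 1 its adjusted p was 0.0507. It was not called either when only the 2 groups were fitted (adjusted p = 0.108).

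**Figure D1:**
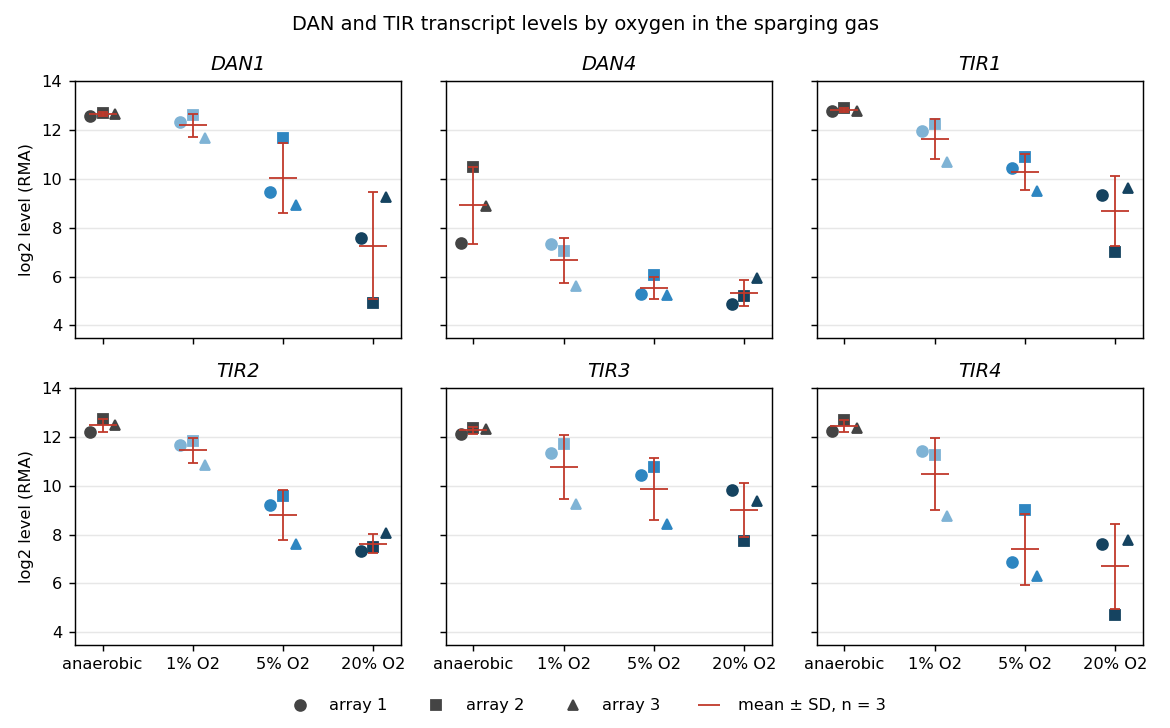
Log2 level (RMA, vertical axis) of each of the 6 genes on the 12 arrays, by oxygen in the sparging gas (horizontal axis). Symbols mark arrays 1 to 3 of a group and red bars the mean ± SD (n = 3). All oxygenated arrays lie below the anaerobic ones in each panel except that of DAN1, where 1% oxygen overlaps the anaerobic arrays.

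A difference between any of the 4 groups was called for 6 of 6 members, where 10.1% of all genes had one. In the comparison of 20% oxygen with anaerobic cultures, 6 of 6 members were called lower, where 4.64% of all genes were. Their median difference was -4.49, against 0.05 over all genes. Arrays of the 2 groups did not overlap for 6 of 6 members, as for 15.9% of all genes in that direction. All 6 ranked among the 20 most negative differences of the 5449 genes. The count was 5 without anaerobic array 2, anaerobic array 3 or 20% oxygen array 2, TIR3 being the member lost each time.

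At 5% oxygen against anaerobic, 5 of 6 members were called lower, where 11.0% of all genes were, and the median was -3 against 0.07 over all genes. The arrays did not overlap for any of the 6 members, as for 22.2% of all genes in that direction. The count was 3 without anaerobic array 2 or 5% oxygen array 3, since TIR1 and TIR3 were then lost.

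At 1% oxygen 1 of 6 members was called lower, where 11.2% of all genes were, so the members were not set apart from the background by calls. Their median difference was -1.35 against 0.00 over all genes, and 5 of 6 had arrays that lay wholly below the anaerobic arrays, as 24.6% of all genes did. No member was called without anaerobic array 2, anaerobic array 3, 1% oxygen array 3 or 5% oxygen array 1, and 2 were called without 5% oxygen array 3. These 3 comparisons share the anaerobic arrays.

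**Figure D2:**
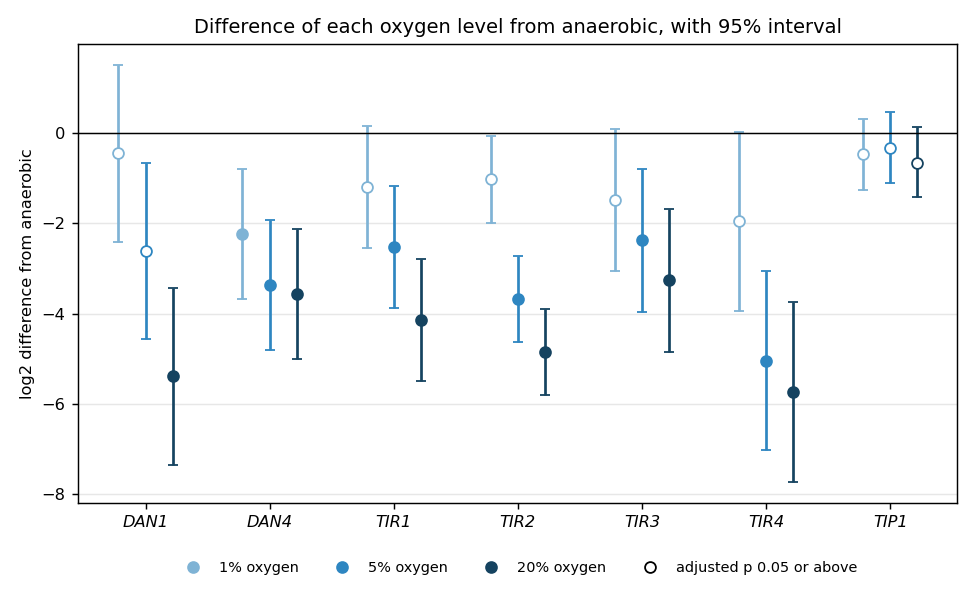
Log2 difference from the anaerobic group (vertical axis) with its 95% interval for the 6 members and for TIP1, at 1%, 5% and 20% oxygen. Filled points had an adjusted p under 0.05. TIR4 reached -5.04 at 5% oxygen and -5.73 at 20%, while DAN1 stood at -0.46, -2.62 and -5.39 over the 3 levels.

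Between successive oxygen levels limma called none of the 5449 genes, and so 0% in either direction and 0 of 6 members. At 5% against 1% oxygen an unadjusted p under 0.05 with a lower mean was found for 3 of 6 members (DAN1, TIR2 and TIR4) and for 106 genes in all, or 1.95%, beside 159 genes with a higher mean. TIR4 had the most negative difference of all genes in that step (-3.08 ± 0.91, adjusted p = 0.884). TIR2 differed by -2.64 ± 0.44 (adjusted p = 0.12), and it was the one member whose 5% arrays all lay below its 1% arrays, as 3.65% of genes did. TIR2 was called without 5% oxygen array 2 (-3.03, adjusted p = 0.0311).

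At 20% against 5% oxygen the unadjusted p was under 0.05 with a lower mean for 3 of 6 members (DAN1, TIR1 and TIR2) and for 36 genes in all, or 0.661%, beside 113 with a higher mean. DAN1 had the most negative difference of all genes in this step (-2.77 ± 0.90, adjusted p = 0.999). TIR1 differed by -1.61 ± 0.62 and TIR2 by -1.17 ± 0.44, each with an adjusted p = 0.999. With 1 array left out the difference was -3.78 to -1.61 for DAN1 and -2.1 to -0.79 for TIR1. Both were smallest without 20% oxygen array 2. DAN4 (-0.19 ± 0.66) and TIR4 (-0.69 ± 0.91) had the smallest differences here, and their signs turned when 1 array was left out. No member had separate ranges at 20% and 5% oxygen, as 2.04% of genes did.

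Across the wider interval of 20% against 1% oxygen 2 of 6 members were called lower, where 0.275% of all genes, or 15 genes, were. TIR2 averaged 7.63 at 20% and 11.44 at 1% oxygen (-3.81 ± 0.44, adjusted p = 0.00835), and DAN1 averaged 7.26 at 20% and 12.19 at 1% oxygen (-4.93 ± 0.90, adjusted p = 0.0381). Arrays of the 2 groups did not overlap for 4 of 6 members, against 6.55% of all genes. The call of TIR2 held with each array left out. The difference of DAN1 was -3.77 without 20% oxygen array 2 and -5.94 without 20% oxygen array 3, both called. Its call ended without any of 8 arrays (adjusted p up to 0.157), namely anaerobic arrays 2 and 3, all 3 of the 1% arrays, 5% oxygen arrays 1 and 3 and 20% oxygen array 1. It also ended with only the 2 groups fitted (adjusted p = 0.111). TIR4 (-3.77 ± 0.91, adjusted p = 0.151) and TIR1 (-2.95 ± 0.62, adjusted p = 0.1) were called only without 1% oxygen array 3 (adjusted p = 0.0491 for TIR4 and 0.0484 for TIR1), or without that array and anaerobic array 1 together (adjusted p = 0.0442 and 0.0402), or with array weights (adjusted p = 0.0225 and 0.0165). TIR3 differed by -1.77 ± 0.73 (adjusted p = 0.315) and DAN4 by -1.32 ± 0.66 (adjusted p = 0.372).

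The members divided their fall over the oxygen range differently, as a description of group means. DAN4 had 63% of its total fall between anaerobic and 1% oxygen and 5.3% between 5% and 20%. Its means at 5% and 20% oxygen, 5.53 and 5.34, lay below 5.84, the level under which the lowest 25% of genes fall. DAN1 (4.93) and TIR4 (4.7) were also below it on 20% oxygen array 2. RMA compresses differences of weak probe sets, and how far such low levels limit the last share was not tested. DAN1 had 8.5% of its fall by 1% oxygen, 40.1% between 1% and 5%, and 51.4% between 5% and 20%. TIR2 and TIR4 had the largest share between 1% and 5% oxygen, at 54.5% and 53.8%. For TIR1 the 3 shares were 28.9%, 32.2% and 38.9%, and for TIR3 they were 45.7%, 27.2% and 27.1%. The shares below 5% oxygen rest in part on 1% oxygen array 3. Without it the share by 1% oxygen was 3.7% for DAN1, 48.5% for DAN4, 17.5% for TIR1, 15.2% for TIR2, 22.6% for TIR3 and 19.3% for TIR4. The share between 1% and 5% oxygen was then the largest of the 3 for TIR1 (43.6%), TIR2 (60.7%), TIR3 (50.3%) and TIR4 (68.7%). The share between 5% and 20% oxygen rests in part on 20% oxygen array 2, where DAN1 read 4.93 and TIR1 7.02. Without that array the 20% against 5% difference was -1.61 for DAN1 and -0.79 for TIR1. Those are smaller than their 5% against 1% differences of -2.16 and -1.33. That the last share was the largest of the 3 for DAN1 and TIR1 thus depends on that array. Whether members differ in these shares was not tested, and the standard errors of 0.44 to 0.91 are of the size of many single steps.

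Arrays of a group tended to deviate in the same direction for the 6 members. All 6 were below their group mean on anaerobic array 1 (median deviation -0.18), 1% oxygen array 3 (-0.99), 5% oxygen array 3 (-1.09) and 20% oxygen array 2 (-1.44), and all 6 were above it on anaerobic array 2 (0.18), 1% oxygen arrays 1 and 2 (0.45 and 0.50), 5% oxygen array 2 (0.84) and 20% oxygen array 3 (0.77). On 20% oxygen array 2 the deviations were unequal, with DAN1 at 4.93, TIR4 at 4.7 and TIR1 at 7.02, well below the other 20% arrays, while TIR2 at 7.49 and DAN4 at 5.21 lay between them. After group means were taken out, the correlation over the 12 arrays was 0.94 between TIR1 and TIR4, 0.91 between TIR1 and TIR3, and 0.89 between DAN1 and TIR1. For the pairs with DAN4 it was 0.35 to 0.57, and for TIR2 it was 0.59 with DAN1, 0.63 with TIR1, 0.66 with TIR4 and 0.78 with TIR3. The points share arrays and normalization, and each group contributes only 3 of them.

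**Figure D3:**
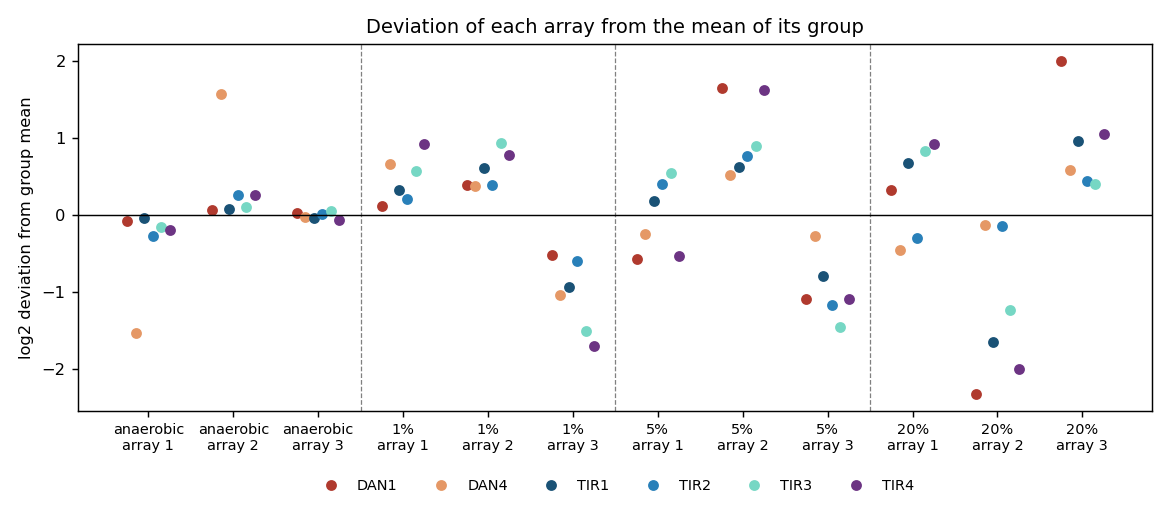
Deviation of each array from the mean of its group (log2, vertical axis) for the 6 genes, array by array (horizontal axis), with dashed lines between groups. All 6 points lie below 0 on 1% array 3, 5% array 3 and 20% array 2, and DAN4 alone spreads widely on the anaerobic arrays.

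The spread of the members was large for this table. Their residual SD of 0.624 to 1.35 compares with a median of 0.323 over all genes, and between 91.4% and 99.5% of genes had a smaller one. Other genes moved with it over the 12 arrays. The deviations of UPC2, the gene of their activator, correlated at 0.60 (TIR1) to 0.82 (TIR2) with those of the members. The deviations of PDR11, a sterol importer gene, did so at 0.49 (DAN4) to 0.90 (TIR4). Among the genes searched for a like pattern below, PDR11 had the highest r with the member mean on these same 12 arrays (0.98). That choice favours high values here, so its range is not compared with that of UPC2. The deviations of TIP1, the family member described next, correlated at 0.38 (DAN4) to 0.88 (TIR3). The part of dissolved oxygen, RNA quality or array handling in this spread was not tested.

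TIP1 is a wall mannoprotein gene of the same family, known for its induction by heat and cold shock. It averaged 11.63 ± 0.27 at 20% oxygen and 12.28 ± 0.09 in anaerobic cultures (SD, n = 3 each), a difference of -0.66 ± 0.36 that was not called (adjusted p = 0.285), with a 95% interval of -1.43 to 0.12. That interval excludes a fall of the size of the smallest member difference, -3.26. The 20% arrays of TIP1 (11.33 to 11.85) all lay below its anaerobic arrays (12.2 to 12.38), as for 15.9% of all genes. TIP1 was called only with array weights (-0.74, adjusted p = 0.0255). At 1% oxygen it differed by -0.48 ± 0.36 (adjusted p = 0.353) and by 0.00 without 1% oxygen array 3, on which it read 10.84 against 12.22 and 12.35 on the others.

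The other family of small anaerobic wall proteins is that of the seripauperins (PAU genes). Of 24 PAU genes listed, 13 had a probe set, and near-identical copies cannot be told apart. Of these 12 were called lower at 20% oxygen (median -2.78) and 13 at both 5% (median -2.90) and 1% (median -2.41). Over all genes the shares called lower were 4.64%, 11.0% and 11.2% at 20%, 5% and 1% oxygen. The PAU median at 1% oxygen thus lay further down than the member median of -1.35, and at 20% oxygen less far than -4.49, a difference between lists that was not tested.

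Chromosome neighbours were read from the order of genes in the RefSeq table of the laboratory strain (assembly R64), which may differ in EC1118. DAN1 lies beside DAN4, and TIR4 lies beside TIR2, which is followed by AUS1, a sterol importer gene. AUS1 fell at 20% oxygen, to 6.86 ± 0.15, against 10.18 ± 0.59 in anaerobic cultures (-3.32 ± 0.35, adjusted p = 0.000326). On the outer side of the DAN pair, YJR149W differed by -0.07 ± 0.36 (adjusted p = 0.934), and YER010C beside TIR1 by 0.00 ± 0.25 (adjusted p = 0.994). YJR151W-A beside DAN4 averaged 2.85 at 20% oxygen and 2.80 in anaerobic cultures, and YOR008C-A beside TIR4 averaged 1.64 and 1.84 in those groups. Neither was called (adjusted p = 0.946 and 0.852). Both genes lay far below 5.84, the level under which the lowest 25% of genes fall, so a fall in them could hardly be seen. DOT5, beside TIR3, fell by 1.16 ± 0.28 (adjusted p = 0.0281), and dependence of that call on single arrays was not examined. These neighbours were named by position, after their values were seen.

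Among 10 genes of known DAN/TIR regulators, 2 fell at 20% oxygen, 5 at 5% and 4 at 1%, where 4.64%, 11.0% and 11.2% of all genes fell. None of the 10 rose, and their medians were -0.79, -1.48 and -1. UPC2 fell to 5.09 ± 0.37 at 20% oxygen, against 7.73 ± 0.45 in anaerobic cultures (-2.64 ± 0.33, adjusted p = 0.000885), and by 2.03 ± 0.33 at 5% oxygen (adjusted p = 0.00311). Its arrays read 7.25, 8.14 and 7.78 under anaerobic conditions, 6.61, 6.73 and 6.63 at 1% oxygen, 5.7, 6.38 and 5 at 5% and 5.02, 4.76 and 5.48 at 20%. At 1% oxygen UPC2 differed by -1.07 ± 0.33 (adjusted p = 0.0476), a call that ended without any of 8 arrays (adjusted p up to 0.184), with median scaling (adjusted p = 0.053) and without anaerobic array 1 and 1% oxygen array 3 together (adjusted p = 0.0858). Those 8 were anaerobic arrays 2 and 3, all 3 of the 1% arrays, 5% oxygen array 1 and 20% oxygen arrays 1 and 2. Its paralogue ECM22, a second sterol-responsive factor, differed by -0.58 ± 0.29 at 20% (adjusted p = 0.231) and fell by 1.26 ± 0.29 at 5% (adjusted p = 0.0125). The 5% call ended with anaerobic array 2, 5% oxygen array 1 or 5% oxygen array 2 left out (adjusted p up to 0.0622).

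None of the repressor genes was called higher at any oxygen level. CYC8, a corepressor subunit, averaged 5.90 ± 0.36 at 20% oxygen and 7.45 ± 0.23 in anaerobic cultures (-1.56 ± 0.32, adjusted p = 0.0123). That call ended without anaerobic array 2 or 20% oxygen array 2 (adjusted p up to 0.0586). CYC8 also fell by 2.26 ± 0.32 at 5% oxygen (adjusted p = 0.00181) and by 1.74 ± 0.32 at 1% (adjusted p = 0.0112, and 0.0579 without anaerobic array 2). TUP1, its partner, differed by -0.60 ± 0.29 at 20% (adjusted p = 0.225) and by -1.04 ± 0.29 at 5% (adjusted p = 0.03). That call of TUP1 ended on leaving out 5% oxygen array 1 or 2, or any of the anaerobic arrays (adjusted p up to 0.121). Its 1% call (-0.94 ± 0.29, adjusted p = 0.0467) was lost on leaving out any array but 1% oxygen arrays 1 and 2 (adjusted p up to 0.17). ROX1, a heme-induced repressor gene, had 7.89, 5.87 and 7.17 on the 20% arrays and 10.42, 9.05 and 6.98 on the anaerobic arrays, which overlap (-1.84 ± 0.92, adjusted p = 0.237). MOT3, a second repressor, differed by -0.89 ± 0.57 (adjusted p = 0.366), a sign that turned with array weights (0.09). HAP1, the heme-responsive activator gene, differed by -0.69 ± 0.20 (adjusted p = 0.0581), and was called with quantile scaling (adjusted p = 0.0426), with array weights and without 1% or 20% oxygen array 3. SUT1, a sterol uptake regulator gene, differed by -1.08 ± 0.42 at 20% (adjusted p = 0.136), called only with array weights or without 20% oxygen array 1 (adjusted p = 0.0437). It fell by 2.14 ± 0.42 at 1% (adjusted p = 0.0128, and 0.0654 without anaerobic array 2). Its mean was 5.23 in anaerobic cultures and 3.09 at 1%, both below 5.84, the level under which the lowest 25% of genes fall. The ECM22 means of 4.54 to 5.80 also lay below that level, as did those of MOT3 at 1%, 5% and 20% oxygen. So did the means of UPC2 at 5% (5.7) and 20% oxygen (5.09), and of CYC8 at 1% (5.71) and 5% oxygen (5.19). RMA compresses differences of such weak probe sets.

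**Figure D4:**
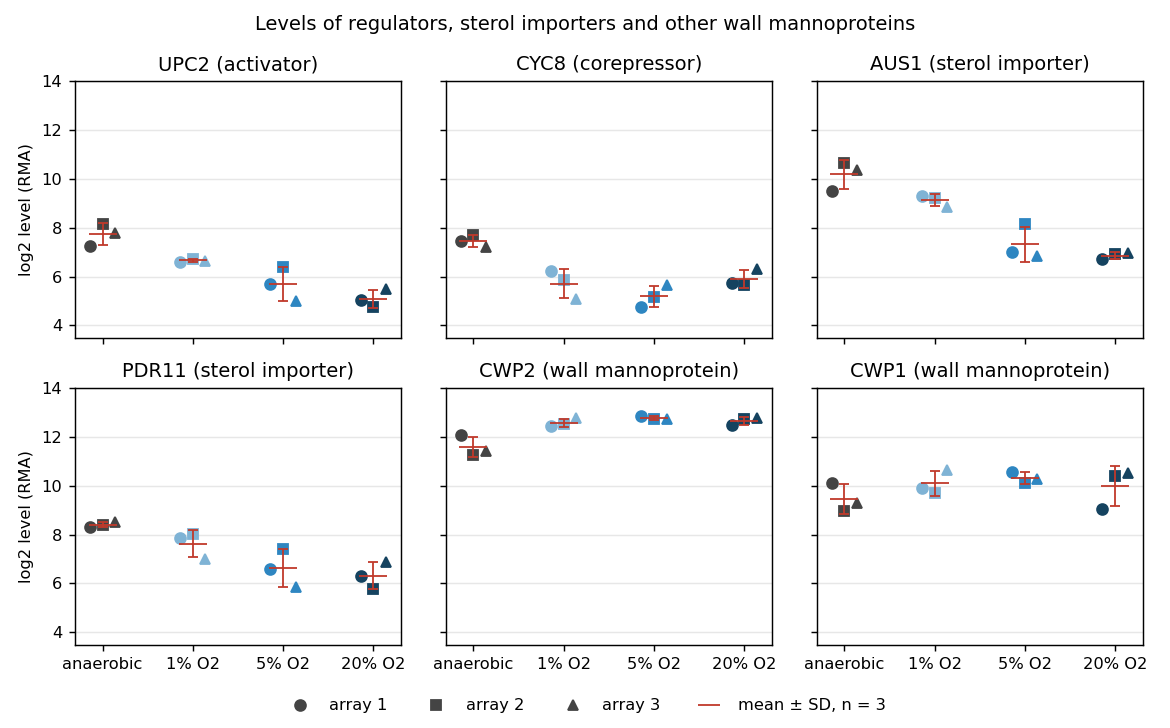
Log2 level (RMA, vertical axis) of 6 genes connected with the DAN/TIR group by oxygen in the sparging gas (horizontal axis), with symbols for arrays 1 to 3 and red bars for mean ± SD (n = 3). UPC2, AUS1 and PDR11 step down over the oxygen range, CYC8 is lower at every oxygen level than in anaerobic cultures, and CWP2 is higher.

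CWP2 and CWP1 are the wall mannoproteins that the DAN and TIR proteins replace in anaerobic laboratory cultures. CWP2 averaged 12.65 ± 0.16 at 20% oxygen and 11.59 ± 0.42 in anaerobic cultures (1.06 ± 0.22, adjusted p = 0.0123), with values of 12.47, 12.74 and 12.75 at 20% oxygen and 12.06, 11.27 and 11.42 under anaerobic conditions. Leaving out anaerobic array 2, anaerobic array 3 or 20% oxygen array 2 ended the call (adjusted p up to 0.0655). It rose by 1.18 ± 0.22 at 5% oxygen (adjusted p = 0.00489) and by 0.98 ± 0.22 at 1% (adjusted p = 0.0179), the 1% call ending without anaerobic array 2 or 3 (adjusted p up to 0.0885). CWP1 averaged 9.99 ± 0.82 at 20% oxygen and 9.45 ± 0.60 in anaerobic cultures, and its arrays overlapped (0.54 ± 0.41, adjusted p = 0.466).

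Of 41 other wall protein genes measured, 36 were not called at 20% oxygen, 2 fell and 3 rose, where 4.64% of all genes fell and 3.27% rose. Their median was 0.08 against 0.05 over all genes. HPF1, a mannoprotein that limits haze in wine, fell by 5.96 ± 0.63 (adjusted p = 0.000323), and CIS3, a PIR-type wall protein gene, differed by -1.15 ± 0.26 (adjusted p = 0.0196), a call that ended on leaving out array 2 or 3 of either group (adjusted p up to 0.0961). Beside CWP2, the flocculin gene FLO1 rose by 2.75 ± 0.41 (adjusted p = 0.00272). Its mean was 5.99 at 20% oxygen and 3.24 in anaerobic cultures, the latter well below the 5.84 level of the lowest 25% of genes. Of 33 genes for GPI anchor synthesis, O-mannosylation and attachment of wall proteins, 30 were not called at 20% oxygen, 1 fell and 2 rose, which is near the same background. These were PMT3, a protein O-mannosyltransferase gene (-1.12 ± 0.26, adjusted p = 0.0247), the mannosyltransferase gene MNN1 (1.00 ± 0.24, adjusted p = 0.0284) and DFG5 (0.70 ± 0.17, adjusted p = 0.0306), which is known from cross-linking of GPI proteins to the wall. All 3 calls ended on leaving out single arrays (adjusted p up to 0.109 for PMT3, 0.103 for MNN1 and 0.131 for DFG5). The arrays were anaerobic arrays 2 and 3 and 20% oxygen array 2 for each, anaerobic array 1 and 20% oxygen array 3 for MNN1 and DFG5, and 20% oxygen array 1 for PMT3. At 5% oxygen 2 of the 33 genes fell and 3 rose, where 11.0% and 5.32% of all genes did. At 1% oxygen 0 fell and 6 rose, where 11.2% and 5.27% of all genes did, so the rises there were above the background. The median at 1% was 0.34 against 0 over all genes. Dependence of these 5% and 1% calls on single arrays was not examined.

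Of 7 sterol uptake genes, 5 fell at 20% oxygen (median -2.09), 6 at 5% (median -1.78) and 1 at 1% (median -1.03). Over all genes 4.64%, 11.0% and 11.2% fell at those levels, so the count at 1% was near the background. At 20% oxygen HES1, an oxysterol-binding protein gene, fell by 5.24 ± 0.58 (adjusted p = 0.00035), and PDR11, a sterol importer gene, averaged 6.32 ± 0.54 against 8.40 ± 0.11 in anaerobic cultures (-2.09 ± 0.39, adjusted p = 0.00885).

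Among genes that were neither members, PAU genes nor in the lowest 25% by mean level, those most like the mean of the 6 members over the 12 arrays were PDR11 (Pearson r = 0.98), UPC2 and HUG1 (0.96 each), AUS1, HES1 and LHS1 (0.94 each), MGA2 (0.93) and PBI1 (0.92). HUG1 encodes an inhibitor of ribonucleotide reductase, LHS1 a chaperone of the endoplasmic reticulum and MGA2 an activator of the fatty acid desaturase gene OLE1. The genes running most against it were COX5A (-0.93), the aerobic form of a cytochrome c oxidase subunit, RKM5 (-0.92), MGM101 and ARG8 (-0.91 each) and COX12 (-0.90). The points share the 4 oxygen groups, so any gene that changes steadily with oxygen scores high.

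Member by member the closest genes differed. PDR11 was closest to TIR1 (0.95), TIR3 (0.95) and TIR4 (0.98), HES1 to TIR2 (0.98), IZH4 to DAN1 (0.92) and ROX3 to DAN4 (0.94). DAN4 correlated with the other members at 0.70 (DAN1) to 0.86 (TIR4), whereas the other pairs lay between 0.85 and 0.96.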

How the data were processed

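RNA of 12 chemostat samples was labelled with biotin for Affymetrix arrays, per the labels' protocols. The deposited values, for 5716 probe sets, are on a log2 scale and were made by the authors with RMA, per the submitters' processing notes. The log2 scale was read from the values (0.32 to 13.68). The sources used here give no RMA version or settings. RMA compresses differences of weak probe sets. Precision is limited by the number of arrays.

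A gene name was given for 5498 probe sets and none for 218. All identifiers matched the reference table, and 12 symbols were updated. The probe set of highest mean was kept for 47 genes with several, leaving 5449 genes. Members and lists were chosen with earlier results of these data known. No sequence was used here, and cross-hybridisation between TIR and PAU relatives, or mismatch of EC1118 transcripts with the probes, was not tested.

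A mean per group was fitted to the 12 arrays with limma 3.58.1 in R 4.3.3 (8 residual and 4.11 prior degrees of freedom), with Benjamini-Hochberg adjustment over all genes of a comparison. The fit was tested on simulated data. Genes other than the members were named by a rule: a fixed set of regulators and wall proteins, up to 2 rises and 2 falls per list at 20% oxygen, and the genes of most like pattern. The alternatives tried were array weights, quantile or median scaling, only the genes above the lowest 25%, means over probe sets, robust and trended priors, a replicate block, a fit of only the 2 groups, a 2-fold minimum, and leaving out each array. A fit without anaerobic array 1 and 1% oxygen array 3 was added after seeing the data, although anaerobic array 1 lay no further from its group than several other arrays.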

Additional observations from a re-analysis of the deposited data

How the results depend on the processing

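The number of members called lower was 6 at 20% oxygen against anaerobic, 5 at 5% and 1 at 1%. These 3 counts were the same with quantile or median scaling, without the dim genes, with means over probe sets and with trended or robust priors. The estimation of array weights did not converge. With them the count against anaerobic was 2 at 1% oxygen and 6 at 5%, where the fit without weights called 1 and 5. It was 1 at 5% against 1% and 4 at 20% against 1%, where the fit without weights called 0 and 2. When only the 2 groups were fitted the count was 0 at 1% oxygen, 6 at 5% and 1 at 20% against 1%. The replicate numbers are not shown to pair the arrays, since deviations of same-numbered arrays correlated at -0.32 to 0.36. With the number as a replicate block the count was 1 at 20% against 1%, where DAN1 had an adjusted p of 0.103, and 5 of 6 for any difference between the groups. It changed no call of a member against anaerobic. Among the genes named in the comparisons with anaerobic, the block left UPC2 at 1% (adjusted p = 0.0663), TUP1 at 5% and 1% (0.0513 and 0.0723) and PMT3, MNN1, DFG5 and MGM101 at 20% (0.0528, 0.0556, 0.0738 and 0.0929) uncalled, and called MOT3 at 5% (0.0495). Without anaerobic array 1 and 1% oxygen array 3 together it was 4 at 20% against 1%. Leaving out single arrays gave 5 to 6 at 20% against anaerobic, 3 to 6 at 5%, 0 to 2 at 1%, 0 to 1 at 5% against 1%, 1 to 3 at 20% against 1%, and 4 to 6 of 6 for any difference between the groups, which called 6 (and 5 with quantile scaling).

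The difference of DAN4 between 20% and 5% oxygen was -0.48 to 0.07 over the fits that left out 1 array, above 0 without 5% oxygen array 2 (0.07) and 20% oxygen array 1 (0.03). That of TIR4 was -1.24 to 0.31, above 0 without array 2 of 5% (0.13) or 20% oxygen (0.31). That of TIP1 at 1% oxygen was -0.75 to 0, the last without 1% oxygen array 3, and 0.05 without that array and anaerobic array 1, and that of MOT3 at 20% was 0.09 with array weights. The cause was not tested. Over all genes, 431 calls at 20% oxygen became 1504 with array weights and 153 to 758 without single arrays. At 5% oxygen 889 became 2442 with weights, 1602 with only the 2 groups, 585 with a 2-fold minimum and 400 to 1303 without single arrays. At 1% oxygen 895 became 1712, 447 and 513 under the same settings, 523 with the block, 155 without anaerobic array 1 and 1% oxygen array 3, and 36 to 985 without single arrays. The 20 calls at 20% against 1% became 44 without those 2 arrays and 5 to 28 without single arrays. The 553 genes with any difference between the groups became 2333 with weights, 308 with the block and 100 to 744 without single arrays.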

Other observations

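Most markers of other yeast cell states had a low mean over all arrays, but they were not level between the groups. All 8 haploid mating genes had a mean over all arrays in the lowest 25% of genes. Their summed level ran from 8.12 to 8.95 (log2) at 20% oxygen and from 6.54 to 7.01 in anaerobic cultures. Among these 8 genes 2 rose at 20% oxygen, where 3.27% of all genes did. They were MF(ALPHA)1 (3.95 ± 0.46, adjusted p = 0.000542) and STE2 (1.03 ± 0.24, adjusted p = 0.0245). MF(ALPHA)1 was not low at 20% oxygen, where its arrays read 8.35, 7.37 and 6.98. Its mean was 7.57 there and 3.61 in anaerobic cultures, against 5.84, the level under which the lowest 25% of genes fall. Leaving out 20% oxygen array 1 or 2, or an anaerobic array, ended the call of STE2 (adjusted p up to 0.0772). Of 8 sporulation genes, 7 in the lowest 25%, SPS1 alone rose at 20% oxygen (1.06 ± 0.20, adjusted p = 0.00801), and their summed level ran from 8.19 to 8.68 at 20% oxygen and from 7.30 to 8.25 in anaerobic cultures. Their part in the fall of the DAN and TIR transcripts was not tested.

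Of 9 genes used to check the oxygen labels, 3 fell and 2 rose at 20% oxygen, each in the direction known for it. Over all genes 4.64% fell and 3.27% rose. HEM13, of heme synthesis, fell by 4.63 ± 0.41 (adjusted p = 9.92e-05), ANB1, a hypoxic translation factor gene, fell by 2.14 ± 0.22 (adjusted p = 0.000305), and COX5A rose by 1.84 ± 0.33 (adjusted p = 0.00675). PET9, an ADP/ATP carrier gene, differed by 1.08 ± 0.26 (adjusted p = 0.0281), and leaving out 20% oxygen array 1 or 2, or anaerobic array 2 or 3, ended that call (adjusted p up to 0.121).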
